A study of Mus musculus with 12 samples.

Results

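The promoters described here belong to the Zfp genes of the mouse, whose symbols begin with Zfp followed by a digit and which encode zinc finger proteins. The promoter table held 792 rows for 398 such symbols, out of 43511 rows for 25124 symbols in all. Each symbol was represented by its row of highest mean CPM (counts scaled to library size) over the 12 libraries. The choice used symbols and the mean over all libraries only, not the treatments. RefSeq classes 391 of the 398 genes as protein coding, 4 as transcribed pseudogenes and 3 as long non-coding RNA genes.

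Chromatin openness was measured by ATAC-seq, in which a transposase cuts accessible DNA and the fragments are sequenced, in liver of mice of the strain C57Bl/6N, all male, wild-type and 19 to 20 weeks old. They received gavages on 4 days with pregnenolone 16α-carbonitrile (PCN) at 100 mg/kg, with atorvastatin at 10 mg/kg or with distilled water (control), and all were fasted for 12 h. Groups held 9 to 10 mice and are represented by 4 libraries each; the labels do not say whether a library came from 1 mouse, so p-values measure the spread between libraries only. PCN activates the mouse pregnane X receptor, a nuclear receptor that controls drug metabolism, and atorvastatin inhibits the rate-limiting enzyme of cholesterol synthesis. A pravastatin group and the enhancer table are not analysed here. Since whole liver was used, a change in the number of cells of a type and a change in openness per cell cannot be told apart.

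Most zinc fingers of these proteins are of the C2H2 type, in which a zinc ion holds a small fold that reads a few bases of DNA, so that an array of fingers recognises a longer sequence. Many C2H2 proteins also carry a KRAB domain, which binds the corepressor TRIM28 (KAP1) and through it the methyltransferase SETDB1, and silences chromatin by methylation of histone H3 at lysine 9. KRAB zinc finger genes arose by repeated tandem duplication, are arranged in clusters and are known for repressing retroelements and imprinted loci. Others under the same symbol have different roles, such as the CCCH proteins of the Zfp36 family, which bind AU-rich elements and speed the decay of mRNAs.

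The sequence before the start shows how unlike these promoters are. For the following 4, the 250 bases before the RefSeq start (GRCm38.p6, the same coordinates as mm10) are given with each CpG in capitals. Zfp91 is shown as one of the most open promoters, Zfp36l1 and Zfp141 as promoters with separate PCN and control groups, and Zfp352 as one of the least open.
Zfp91 (chr19:12796124-12796373, minus strand, 22 CpG): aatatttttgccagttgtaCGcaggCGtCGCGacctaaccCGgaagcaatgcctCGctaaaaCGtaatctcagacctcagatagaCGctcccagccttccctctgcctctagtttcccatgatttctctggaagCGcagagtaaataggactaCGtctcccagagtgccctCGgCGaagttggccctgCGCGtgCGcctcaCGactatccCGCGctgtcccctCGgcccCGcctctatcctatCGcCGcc
Zfp36l1 (chr12:80113014-80113263, minus strand, 10 CpG): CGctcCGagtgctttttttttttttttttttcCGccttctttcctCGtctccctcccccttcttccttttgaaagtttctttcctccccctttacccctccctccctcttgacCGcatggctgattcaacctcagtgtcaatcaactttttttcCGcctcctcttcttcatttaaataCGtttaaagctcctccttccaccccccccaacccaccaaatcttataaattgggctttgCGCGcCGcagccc
Zfp141 (chr7:42505754-42506003, minus strand, 10 CpG): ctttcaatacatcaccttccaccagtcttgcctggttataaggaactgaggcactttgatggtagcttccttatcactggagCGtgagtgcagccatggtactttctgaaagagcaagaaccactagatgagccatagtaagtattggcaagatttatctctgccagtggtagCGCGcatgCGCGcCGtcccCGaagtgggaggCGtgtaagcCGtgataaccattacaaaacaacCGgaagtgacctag
Zfp352 (chr4:90218570-90218819, plus strand, 2 CpG): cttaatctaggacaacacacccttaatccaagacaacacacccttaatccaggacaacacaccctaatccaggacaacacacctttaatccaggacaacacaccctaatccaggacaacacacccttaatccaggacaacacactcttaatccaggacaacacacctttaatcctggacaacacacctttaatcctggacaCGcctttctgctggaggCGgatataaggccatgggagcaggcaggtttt

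A further 8 promoters held the motif of ZFP143 (known from human ZNF143), itself a zinc finger protein that binds promoters, and are shown because the motif was met in 2.95% of Zfp promoters, against 0.443% of other promoters. The letters searched were ACTACAATT, on both strands. Each site is given in the direction of the motif, in capitals, with up to 9 bases on either side.
Zfp1 (chr8:111643411-111643437): aggtgtaggACTACAATTcccataatg
Zfp108 (chr7:24254720-24254746): ggctccagaACTACAATTcccagaatg
Zfp128 (chr7:12881156-12881177): tgagACTACAATTcccagaagg
Zfp180 (chr7:24081868-24081894): ctcaatggaACTACAATTcccagaact
Zfp58 (chr13:67500533-67500559): agtggccagACTACAATTcccacaagt
Zfp692 (chr11:58307012-58307038): ctaaggctaACTACAATTcccggcagg
Zfp93 (chr7:24270340-24270366): ggcgttggaACTACAATTcccagaatt
Zfp933 (chr4:147848433-147848459): ttccaaagaACTACAATTcccagcatt
All 8 sites lay between 5 and 61 bases before the start, counted from the first base of the motif, and none overlapped another motif searched. Openness of these 8 promoters covered 3.71 for Zfp933 to 5.61 for Zfp1 in mean log2 CPM. Level and sequence were joined by symbol, and it was not checked that both belong to the same start. Zfp93, for example, had rows of 13.8 and 5.29 CPM. A match describes the letters only and shows no binding.

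Before the values, 2 libraries have to be named. The median correlation of log2 CPM with the other libraries was taken over the 386 Zfp promoters with enough counts to be tested. It was 0.699 for atorvastatin 3 and 0.587 for control 3, and lay between 0.898 and 0.961 for the other 10. Control 3 and control 4 were also the shallowest libraries, with promoter totals of 2368263 and 1679054 expected counts, and totals of the other 10 ran from 4218336.5 to 15336000.5. In control 3, 26 of the 398 promoters (6.53%) had no count, against 14 in control 4 and 4 to 8 in each of the others. Of those, 15 were at 0 in control 3 alone, and 7 of these averaged over 10 CPM across libraries: Zfp207, Zfp35, Zfp558, Zfp575, Zfp707, Zfp764 and Zfp954. Results that rest on either library are given with and without it.

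Zfp promoters mostly ranked above the median openness of all symbols in liver, at a middle level and with less spread than all symbols together. No cut-off for an open promoter was set. Levels are TMM-scaled CPM per promoter window, whose width is not given in the sources used here, so they are not per length. Mean log2 CPM (prior count 2) had a median of 4.27 over the 398 promoters, with quartiles of 3.45 and 4.99, against a median of 3.61 and quartiles of 2.21 and 4.98 over all 25124 symbols. The interquartile range was thus 1.55 for Zfp promoters and 2.77 for all symbols. On the CPM scale the Zfp median was 19.5, the lower decile 5.75, the upper decile 50.2 and the maximum 109.

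Of the 398 promoters, 283 (71.1%) lay above the median of all symbols. The lowest 25% of symbols held 35 of them (8.79%), the middle 50% held 262 (65.8%) and the top 25% held 101 (25.4%). Zfp promoters were therefore scarce among the least open promoters and no more frequent than other symbols among the most open. Among related families, the 28 Zkscan and Zscan promoters had a median of 3.77 and an interquartile range of 1.94. The 42 Zbtb promoters had a median of 5.29 with a range between quartiles of 1.4, narrower than that of Zfp promoters, and the 17 Klf promoters had 5.54 with 2.31. The 1132 olfactory receptor promoters (Olfr), which serve as closed promoters in liver, had a median of 1.31, and none lay above the median of all symbols. These differences between families are descriptions and were not tested.

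**Figure D1:**
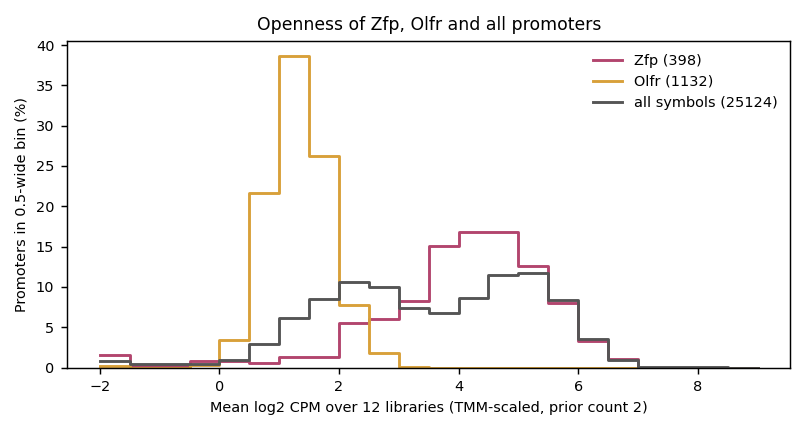
Share of promoters (%) in bins of mean log2 CPM over 12 libraries, for 398 Zfp promoters, 1132 Olfr promoters and all 25124 symbols. Zfp promoters form a single broad peak around their median of 4.27, above Olfr promoters at 1.31 and between the low and the high hump of all symbols.

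The most open Zfp promoters were those of Zfp78, Zfp36l2, Zfp687 and Zfp91. Zfp78 had 90, 111, 173 and 130 CPM in PCN libraries 1 to 4, 79.6, 115, 80.5 and 116 CPM in atorvastatin libraries and 81.9, 89.8, 110 and 128 CPM in control libraries. Zfp36l2, an mRNA decay factor, averaged 112 ± 19.1 CPM in PCN, 111 ± 29.5 CPM in atorvastatin and 98.1 ± 24.0 CPM in control livers (SD, n = 4 each). Zfp687, mutated in a form of human Paget disease of bone, averaged 118 ± 38.7, 92.8 ± 27.9 and 101 ± 29.6 CPM in PCN, atorvastatin and control livers. Zfp91, an E3 ubiquitin ligase, averaged 104 ± 26.2 CPM in PCN, 95.1 ± 28.3 CPM in atorvastatin and 85.5 ± 13.9 CPM in control livers; its row is identical to that of the overlapping symbol Gm44505. In all 4 promoters the 3 groups overlapped.

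At the other end, Zfp965 and Zfp973 had no count in any library. The lowest with any counts were Zfp781, Zfp966, Zfp967 and Zfp932, each at or below 0.339 CPM in every library. Zfp932, a KRAB protein that represses endogenous retroviruses in mouse embryonic stem cells, had 3 counts in atorvastatin 3, 2.5 in atorvastatin 4, 1 in PCN 1 and 1 in control 1. Zfp966 and Zfp967 had identical values, a single count in atorvastatin 2. Among these 6, Zfp965, Zfp966, Zfp967 and Zfp973 all lie on chromosome 2 between 175470025 and 176681090. How reads that match several places were counted is not given in the sources used here, so low counts of near-identical copies are uncertain. In all, 12 promoters were too low to be tested, and besides those 6 these were Zfp600, Zfp955a, Zfp955b, Zfp97, Zfp979 and Zfp991.

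For 310 of the symbols all rows were the same, and 88 had more than 1 distinct promoter row. The log2 ratio of the most to the least open row had a median of 0.02, so most alternative promoters gave nearly the same count. It exceeded 1 for 15 symbols. Zfp708 had 37.0 CPM at its most open and 4.63 CPM at its least open promoter. Zfp800 had 30.7 and 4.24 CPM, Zfp217 30.3 and 4.26 CPM, and Zfp385b 25.9 and 4.85 CPM at the most and least open row. Taking the least open row of each symbol gave a median of 4.12 in place of 4.27.

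Grouped by role, promoters of broadly used regulators were more open than those of germline genes. The 12 broadly used regulators had a median of 5.38, and ran from 4.74 for Zfp451 to 6.54 for Zfp91. Among them Zfp143 had 6.18, Zfp335 5.80 and Zfp384 5.71. The 8 genes for RNA and translation had a median of 4.93. Zfp598, which senses collided ribosomes, had 5.06, and Zfp622, a maturation factor of the large ribosomal subunit, 5.18. Of the mRNA decay genes, Zfp36 had 5.98, Zfp36l1 5.67 and Zfp36l2 6.71, whereas Zfp36l3, a rodent gene known from placenta, had 2.05. In the liver and adipose list the median was 5.38, with Zfp467 at 5.83, the adipocyte regulators Zfp423 at 5.38 and Zfp516 at 5.34, and Zfp638 at 4.55. Zfp125 was not analysed here.

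The 7 germline and early embryo genes had a median of 2.45. Zfp296 had 3.67, Zfp42 (Rex1), a marker of pluripotent stem cells, 1.71, Zfp352, which is expressed in the early embryo, 0.96 and Zfp534 0.43. The 11 neural and developmental genes spanned 2.11 for Zfp365 to 6.22 for Zfp703, with a median of 3.32. The genes for imprints and retroelements were spread as widely. Zfp809, which silences murine leukaemia viruses, had 5.53, Zfp568, which represses a placental Igf2 transcript, 5.16, and Zfp708 5.17. The imprint guardians Zfp445 and Zfp57 had 4.28 and 2.62. The 15 genes of the KRAB corepressor machinery had a median of 4.87, from 3.5 for Setdb1 to 6.06 for Cbx3, with Trim28 at 5.83.

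**Figure D2:**
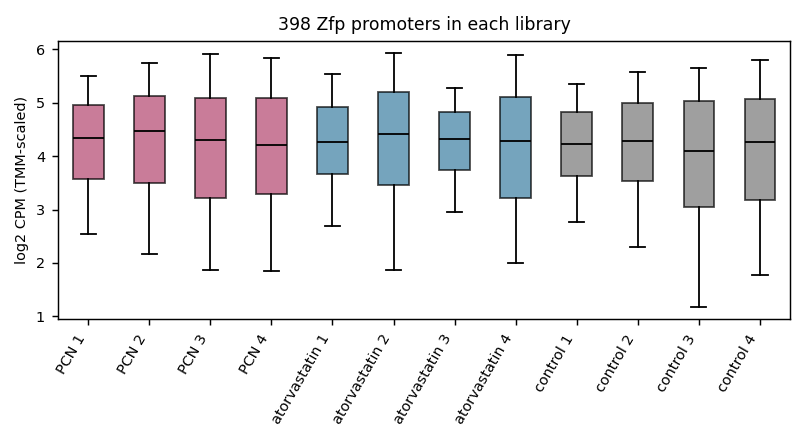
Log2 CPM of the 398 Zfp promoters in each of the 12 libraries, with the median (line), quartiles (box) and the 10th and 90th percentile (whiskers). Medians stay between 4.09 and 4.48, whereas box heights differ within each group, from 1.09 in atorvastatin 3 to 1.99 in control 3.

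The level of the Zfp promoters as a whole was much the same in the 3 groups, and their spread differed between libraries of a group. The library median of log2 CPM lay between 4.22 and 4.48 in PCN, 4.26 and 4.41 in atorvastatin and 4.09 and 4.29 in control livers. Zfp promoters took 0.945 to 0.989% of all promoter counts in PCN, 0.938 to 0.985% in atorvastatin and 0.944 to 0.961% in control libraries. The interquartile range over the promoters ran from 1.38 to 1.87 in PCN, 1.09 to 1.88 in atorvastatin and 1.20 to 1.99 in control libraries, and these ranges overlap. Single promoters varied little between libraries of a group: the median within-group SD of log2 CPM was 0.393 for Zfp promoters and 0.524 for all symbols. Within the 25% of tested symbols with the highest level, it was 0.312 for Zfp promoters and 0.354 for all symbols. In the lower classes of 25%, from low to high, it was 1.006, 0.614 and 0.335 for Zfp promoters. For all symbols these values were 1.125, 0.701 and 0.352. The class with 0.335 and 0.352 held 172 of the 386 tested Zfp promoters.

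PCN was compared with control to ask which promoters differed after activation of the pregnane X receptor. No Zfp promoter passed an adjusted p of 0.05 in the quasi-likelihood test of edgeR, with p-values adjusted after Benjamini and Hochberg over all 41908 promoters tested (0 of 386 tested, against 0% of all promoters), and the lowest adjusted p was 0.918. At an unadjusted p under 0.05 there were 15 Zfp promoters (3.89%), 10 higher and 5 lower in PCN, against 3.75% of all promoters (1.87% higher and 1.88% lower), a share near the background. DESeq2 and limma-voom also called 0, with 15 and 10 at an unadjusted p under 0.05. The edgeR count was 7 without PCN 2 and 8 without PCN 4, and 24, 27 and 28 without control 2, atorvastatin 3 and control 4. Shares of all promoters at that p were not computed for these other fits. In the comparisons of groups, Zfp values take 1 row per symbol, whereas values for all promoters take every tested row. With every row of the Zfp symbols, 20 of 759 had an unadjusted p under 0.05 by edgeR. The log2 fold changes of the 386 promoters ran from -1.75 to 0.84 with a median of 0.09, against 0.01 for all promoters, and 236 of 386 were above 0 (61.1%), against 51% of all promoters. That direction depended on the scaling: with library totals 179 were above 0 and the median was -0.02, and all promoters moved to a median of -0.10. A fold of 1.5 or more in either direction was fitted for 38 promoters (9.84%), against 16.7% of all promoters. The median SE was 0.275 for Zfp promoters and 0.316 for all promoters. Neither of these is matched for level, and only 8.79% of Zfp promoters lay in the lowest 25% of symbols.

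In 13 Zfp promoters (3.37%) all PCN libraries lay above all control libraries, against 2.07% of all promoters, and in 3 (0.777%) all lay below, against 1.52%. The 13 were Zfp141, Zfp202, Zfp280c, Zfp322a, Zfp354a, Zfp36l1, Zfp445, Zfp607b, Zfp688, Zfp710, Zfp871, Zfp930 and Zfp961, and the 3 were Zfp54, Zfp711 and Zfp941. None of these passed the adjusted test.

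Among the promoters higher in PCN, the smallest p belonged to Zfp141, Zfp36l1 and Zfp607b. Zfp141 (chromosome 7, 42473386 to 42505778) had 27.6, 27.0, 28.8 and 21.5 CPM in PCN libraries 1 to 4, against 19.5, 17.9, 16.0 and 16.3 CPM in control libraries. All PCN values lay above all control values, with a log2 fold change of 0.57 ± 0.20 (SE, unadjusted p = 0.00862, edgeR). Control 3 was the lowest control library, and the log2 fold change was 0.53 without control 3 and atorvastatin 3. The promoter of Zfp141, printed above, holds the letters of the ETS core, of the NRF1 motif and of a CCAAT box.

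Zfp36l1 (chromosome 12, 80107760 to 80113013) encodes an mRNA decay factor that in mouse liver acts on the mRNA of Cyp7a1, the rate-limiting enzyme of bile acid synthesis. Its promoter had 55.2, 68.1, 60.3 and 71.9 CPM in PCN libraries and 38.0, 45.9, 33.1 and 45.2 CPM in control libraries. Again the groups were separate, with a log2 fold change of 0.66 ± 0.24 (SE, unadjusted p = 0.0111, edgeR). Control 3 was again the lowest control library, and the log2 fold change was 0.58 without control 3 and atorvastatin 3. The atorvastatin libraries fell into a low pair at 40.9 and 39.5 CPM (1 and 3) and a high pair at 64.7 and 64.4 CPM (2 and 4), and overlapped both groups.

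Zfp607b (chromosome 7, 27674661 to 27706484) had 35.1, 42.2, 42.5 and 41.0 CPM in PCN, against 30.3, 32.8, 19.9 and 21.4 CPM in control libraries. Its groups were separate too, and the log2 fold change was 0.59 ± 0.22 (SE, unadjusted p = 0.0126, edgeR). Here too control 3 was the lowest control library, and the log2 fold change was 0.47 without control 3 and atorvastatin 3.

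On the lower side, the smallest p belonged to Zfp977, Zfp54 and Zfp879, and in each control 3 was the highest library. Zfp54 (chromosome 17, 21423227 to 21435384) had 14.7, 11.2, 15.5 and 15.5 CPM in PCN, against 18.7, 19.9, 34.7 and 17.0 CPM in control libraries. All PCN values were below all control values, and the log2 fold change of -0.66 ± 0.26 (SE, unadjusted p = 0.0202, edgeR) became -0.38 without control 3 and atorvastatin 3. Zfp977 had 2.39, 1.58, 2.41 and 4.14 CPM in PCN, against 6.55, 3.96, 20.7 and 5.03 CPM in control libraries. Its log2 fold change was -1.75 ± 0.69, and -0.97 without the 2 libraries. Zfp879 had 12.0, 11.2, 8.36 and 10.6 CPM in PCN, against 13.4, 10.4, 36.3 and 15.7 CPM in control libraries. Its log2 fold change was -0.83 ± 0.37, and -0.29 without them.

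Fitted fold changes in this comparison went with the level of the promoter, among Zfp genes and among all symbols. In 4 classes of mean level, each with 25% of the tested symbols, from low to high, the median log2 fold change of Zfp promoters was -0.53, -0.17, 0.08 and 0.21, and that of all symbols was -0.36, -0.35, 0.08 and 0.21. Without control 3 and atorvastatin 3 the Zfp medians were -0.34, -0.16, 0.07 and 0.21, against -0.4, -0.26, 0.05 and 0.19 for all symbols. Offsets fitted by loess on level brought the median over Zfp promoters to 0.01. By role, 12 of the 12 broadly used regulators were above 0 (median 0.16), and 2 of the 7 germline genes were (median -0.26). The other lists had 3 of 4 mRNA decay genes, 5 of 6 tested imprint and retroelement genes, 4 of 5 liver and adipose genes, 7 of 8 RNA and translation genes, 5 of 11 neural and developmental genes and 13 of 15 KRAB corepressor genes above 0. No member of any of these lists was called, and Zfp36l1 alone had an unadjusted p under 0.05 by edgeR. Hepatocyte marker promoters, at a median level of 5.16, were above 0 for 8 of 11 genes, with a median of 0.3 on the log2 scale. Lists of markers of 6 other cell types, at median levels of 2.17 to 3.3, had medians of -0.54 to -0.2. Of 8 Kupffer cell markers 0 were above 0 (median -0.54, summed 38.4 to 60.1 CPM in PCN and 36.1 to 114 CPM in control libraries). Of 10 stellate and fibroblast markers 1 was above 0 (median -0.32, summed 44.8 to 76.4 and 65 to 97.1 CPM). No marker was at 0 in all libraries, and the part of cell types in the Zfp values was not tested.

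Atorvastatin was compared with control to ask which promoters differed after statin treatment. Again no Zfp promoter was called by edgeR (0 of 386, against 0% of all promoters, lowest adjusted p = 1), nor by DESeq2 or limma-voom. At an unadjusted p under 0.05 there were 14 (3.63%), 12 higher and 2 lower in atorvastatin, against 1.93% of all promoters (1.06% higher and 0.866% lower); DESeq2 gave 11 and limma-voom 10, a fit of these 2 groups alone gave 7, and leaving out control 4 gave 22. With every row of the Zfp symbols, 25 of 759 had an unadjusted p under 0.05 by edgeR. Shares of all promoters at that p were not computed for the other fits. The median log2 fold change was 0.08, against 0.05 for all promoters, with a range of -1.46 to 1.61, and 239 of 386 promoters were above 0 (61.9%), against 57.3% of all promoters. With library totals 211 were above 0 and the median was 0.03, and with limma-voom the medians were 0.01 for Zfp and -0.08 for all promoters. A fold of 1.5 or more was fitted for 26 promoters (6.74%), against 12% of all promoters, again not matched for level. All atorvastatin libraries lay above all control libraries for 8 Zfp promoters (2.07%), against 0.535% of all promoters: Zfp110, Zfp13, Zfp141, Zfp142, Zfp202, Zfp280d, Zfp563 and Zfp862-ps. Only Zfp358 (0.259%) lay below throughout, against 0.441% of all promoters.

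Zfp141 had the smallest p here as well, with 26.3, 28.6, 29.0 and 24.7 CPM in atorvastatin libraries and the control values given above, a log2 fold change of 0.62 ± 0.20 (SE, unadjusted p = 0.00466, edgeR). Without control 3, the lowest control library, and atorvastatin 3 the log2 fold change was 0.54. Both comparisons use the same 4 control libraries, in which this promoter had a mean of 17.4 ± 1.62 CPM (SD, n = 4). Between PCN and atorvastatin it differed by -0.05 ± 0.19 on the log2 scale, with a 95% interval of -0.42 to 0.33.

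Zfp282 (chromosome 6, 47877209 to 47908485) had 38.3, 46.5, 32.3 and 49.2 CPM in atorvastatin, against 25.3, 32.2, 16.7 and 30.8 CPM in control libraries. The lowest atorvastatin and the highest control value were nearly equal, and on the log2 CPM scale used to count overlaps the groups touched. Its log2 fold change was 0.66 ± 0.23 (SE, unadjusted p = 0.00757, edgeR). Without control 3, the lowest control library, and atorvastatin 3 the log2 fold change was 0.62. Zfp142 (chromosome 1, 74566331 to 74588133), whose human form is linked to a neurodevelopmental disorder, had 51.0, 58.4, 58.2 and 65.1 CPM in atorvastatin, against 35.5, 39.3, 30.3 and 47.8 CPM in control libraries. These groups did not overlap, with a log2 fold change of 0.62 ± 0.22 (SE, unadjusted p = 0.01, edgeR). Control 3 was the lowest control library here as well, and the log2 fold change was 0.54 without control 3 and atorvastatin 3.

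Zfp358 (chromosome 8, 3493138 to 3497208) had 17.0, 16.2, 12.9 and 19.4 CPM in atorvastatin, against 21.2, 19.7, 35.9 and 28.6 CPM in control libraries. The groups were separate, but the log2 fold change of -0.66 ± 0.24 became -0.34 without control 3 and atorvastatin 3. Zfp54 had 13.8, 12.2, 17.8 and 14.9 CPM in atorvastatin, which overlapped control only through control 4 at 17.0 CPM. Its log2 fold change of -0.62 ± 0.26 became -0.46 without both libraries and -0.35 without control 3 alone. Zfp345 had 3.21, 1.08, 1.64 and 1.63 CPM in atorvastatin, against 3.36, 3.34, 12.0 and 1.57 CPM in control libraries, and its log2 fold change of -1.46 ± 0.71 became -0.66 without the 2 libraries. In the 4 classes of level, from low to high, the Zfp medians were 0.1, 0.12, 0.09 and 0.06, against 0.12, -0.01, 0.04 and 0.08 for all symbols. Without control 3 and atorvastatin 3 the 2 lower classes changed sign, with Zfp medians of -0.32, -0.13, 0.08 and 0.17, against -0.5, -0.28, 0.06 and 0.19 for all symbols. Hepatocyte markers were above 0 for 8 of 11 genes (median 0.32), and medians of the 6 other cell type lists ran from -0.26 to 0.24. Above 0 were 3 of 4 mRNA decay genes, 5 of 6 imprint and retroelement genes, 2 of 5 liver and adipose genes, 8 of 12 broadly used regulators, 5 of 8 RNA and translation genes, 8 of 11 neural and developmental genes and 3 of 7 germline genes, with none called. Among the KRAB corepressor genes 7 of 15 were above 0, none was called, and 1, the maintenance DNA methyltransferase Dnmt1, had an unadjusted p under 0.05 (edgeR) with a log2 fold change of 0.53.

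**Figure D3:**
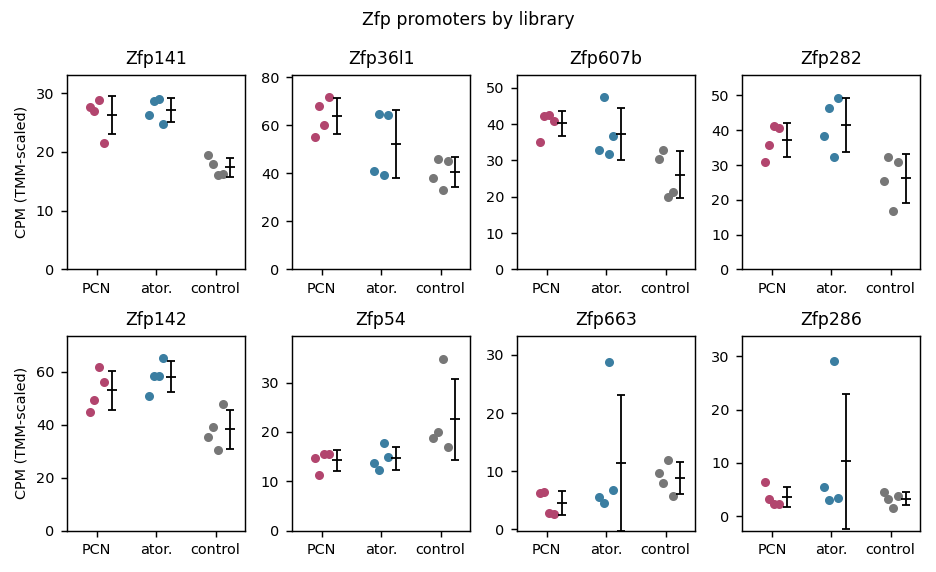
CPM of 8 Zfp promoters in each library (points) with the mean and SD beside them (n = 4 per group), for PCN, atorvastatin (ator.) and control livers. Zfp141 has both treated groups above control, whereas the mean of Zfp663 and of Zfp286 in atorvastatin rests on 1 library, at 28.8 and 29.2 CPM.

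PCN and atorvastatin were also set against each other. No Zfp promoter was called by edgeR (0 of 386, against 0% of all promoters, lowest adjusted p = 1), DESeq2 or limma-voom, and 2 (0.518%), both lower in PCN, had an unadjusted p under 0.05 by edgeR, against 0.73% of all promoters (0.043% higher and 0.687% lower); DESeq2 gave 3 and limma-voom 0, and leaving out 1 library gave 0 (PCN 3, PCN 4 or atorvastatin 3) to 7 (atorvastatin 2). With every row of the Zfp symbols, 7 of 759 had an unadjusted p under 0.05 by edgeR. Shares of all promoters at that p were not computed for the other fits. The median log2 fold change was 0.01, against -0.02 for all promoters, and 201 of 386 were above 0 (52.1%), against 47.9%. A fold of 1.5 or more was fitted for 30 promoters (7.77%), against 15.6% of all promoters, again not matched for level. No Zfp promoter had all PCN libraries above all atorvastatin libraries, against 0.291% of all promoters, and 1 tested promoter, Zfp109, had all below, against 0.212%.

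The promoters with the smallest p on the lower side were all highest in atorvastatin 3. Zfp663 had 6.26, 6.42, 2.80 and 2.69 CPM in PCN, against 5.53, 4.48, 28.8 and 6.73 CPM in atorvastatin libraries. Its log2 fold change of -1.33 ± 0.57 became -0.30 without atorvastatin 3 and control 3. Zfp286 had 6.38, 3.16, 2.36 and 2.28 CPM in PCN, against 5.53, 2.93, 29.2 and 3.42 CPM in atorvastatin libraries, and its log2 fold change of -1.52 ± 0.68 became -0.10. Zfp711, whose human form is linked to X-linked intellectual disability, had 2.73, 3.16, 1.91 and 1.03 CPM in PCN, against 4.42, 2.53, 11.8 and 3.18 CPM in atorvastatin libraries, with a log2 fold change of -1.30 ± 0.65 that became -0.57. On the higher side Zfp868 had 40.6, 40.6, 60.5 and 54.1 CPM in PCN, against 29.4, 44.6, 30 and 45.5 CPM in atorvastatin libraries, a log2 fold change of 0.39 ± 0.22 with overlapping groups. The log2 fold change of Zfp868 was 0.29 without atorvastatin 3 and control 3. Zfp719 and Zfp106, the second encoding an RNA-binding protein needed by motor neurons, differed by 0.39 ± 0.26 and 0.37 ± 0.25, and both were lowest in atorvastatin 3, at 10.2 and 8.92 CPM. Leaving that library out gave 0.14 for Zfp719 and 0.18 for Zfp106. By role, 10 of 12 broadly used regulators, 7 of 8 RNA and translation genes, 5 of 5 liver and adipose genes, 3 of 4 mRNA decay genes, 5 of 6 imprint and retroelement genes, 5 of 11 neural and developmental genes, 1 of 7 germline genes and 12 of 15 KRAB corepressor genes were above 0, with none called. Hepatocyte markers were above 0 for 9 of 11 genes (median 0.03), and medians of the 6 other cell type lists ran from -0.52 to -0.21. In the 4 classes of level the Zfp medians were -0.71, -0.27, 0.03 and 0.13, against -0.5, -0.32, 0.03 and 0.13 for all symbols. Without the 2 libraries they were -0.09, 0.02, 0.01 and 0.02, against 0.1, 0.03, -0.01 and 0 for all symbols.

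Position in the genome was taken from RefSeq, and Zfp genes were unevenly spread. Chromosome 7 held 93 of them (23.4%, against 8.95% of all symbols), chromosome 17 held 46 (11.6%, against 4.85%) and chromosome 13 held 38 (9.55%, against 3.63%). With Zfp genes within 100 kb of each other joined, 131 lay in 15 clusters of 5 or more, 96 in 38 clusters of 2 to 4, and 171 stood alone. Neighbours under other symbols, zinc finger genes included, were not counted. A lone gene here is thus one without another Zfp gene within that distance. Lone promoters had a median log2 CPM of 4.52, those in large clusters 4.24 and those in small clusters 3.90. A mean log2 CPM above 5 was reached by 34.5% of lone promoters, 20.6% of those in large clusters and 13.5% of those in small clusters.

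The largest cluster, on chromosome 13 from 67038594 to 67827000, held 24 promoters, with a median of 4.01 and a range of 2.59 for Zfp459 to 5.17 for Zfp708. Of its genes, 16 carry in RefSeq the synonym Rslcan, which marks candidates for Rsl, the KRAB proteins that regulate sex-limited genes in mouse liver. This list was drawn up after the data were seen. The 16 had a median log2 CPM of 4.04. In PCN against control 7 of 16 were above 0, with log2 fold changes between -0.40 and 0.50. In atorvastatin against control 7 were above 0, between -0.47 and 0.51. None had an unadjusted p under 0.05 by edgeR or groups that did not overlap. The most open of them, Zfp708, averaged 43.4 ± 6.05 CPM in PCN, 37.4 ± 10.6 CPM in atorvastatin and 30.3 ± 9.91 CPM in control livers (SD, n = 4 each).

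Cluster medians covered a wide range. The highest median, 5.58, was that of 6 genes on chromosome 7 from 6131489 to 6396637, among them Zfp78, Zfp787 and Zfp444, and the lowest, 2.3, that of 6 genes on chromosome 4 from 147443114 to 147849126. In the chromosome 4 cluster Zfp534 had 0.43 and the untested Zfp979 -0.60, whereas Zfp933, with its ZFP143 motif, had 3.71. Chromosome 17 from 21383707 to 21994366 held 13 genes, Zfp54 among them, with a median of 4.1. The 9 promoters on the X chromosome had a median of 2.05. A median over all X-linked symbols was not computed, and the part of X copy number in these male mice was not tested.

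**Figure D4:**
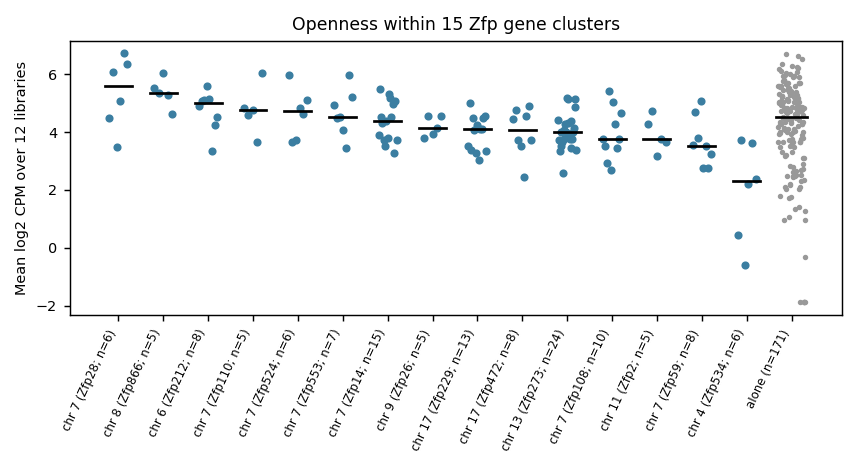
Mean log2 CPM over 12 libraries of each Zfp promoter (points) in the 15 clusters of 5 or more genes and in genes standing alone, with medians as lines. Genes standing alone have no other Zfp gene within 100 kb. Each cluster is labelled with its chromosome, its first gene by symbol and its number of genes, and medians run from 5.58 at the left to 2.3.

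CpG content and openness were related, and Zfp promoters poor in CpG were more open than other promoters of that kind. RefSeq promoter sequence matched 328 of the 398 symbols, and the 271 with a single entry were used, beside 15360 other symbols with a single entry. No sequence was at hand for promoters on chromosome 18. Sequence and level were joined by symbol. It was not checked that the RefSeq start was that of the row used for openness. The 250 bases before the start held a median of 10 CpG in Zfp promoters and 9 in others. With 0 to 4 CpG the median log2 CPM was 3.29 for 43 Zfp promoters, against 1.93 for other promoters and 2.11 for other promoters without the 912 olfactory receptor promoters of this class. With 5 to 9 CpG it was 3.78 for 84 Zfp promoters, against 3.11. Both differences had this direction in 12 of 12 libraries, ranging from 0.32 to 1.90 and from 0.09 to 1.05. With 10 to 14 CpG the medians were 4.38 and 4.51, with 15 to 19 CpG 4.48 and 4.81, and with 20 or more CpG 5.07 and 5.09, for Zfp and other promoters. In those classes the Zfp median was above that of others in 0, 0 and 3 of 12 libraries. Sequence was not matched within a class. At 0 to 4 CpG, Zfp promoters had medians of 3 CpG and 46.8% GC, and other promoters 2 CpG and 44.0% GC. Across promoters, Pearson's r between CpG count and openness was 0.38 and Spearman's rho 0.45 (n = 271), against 0.62 and 0.70 for other promoters (n = 15360); promoters share libraries and are not independent, so no p is given. Libraries are not independent samples of the sequence, so the counts of 12 describe these libraries only.

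**Figure D5:**
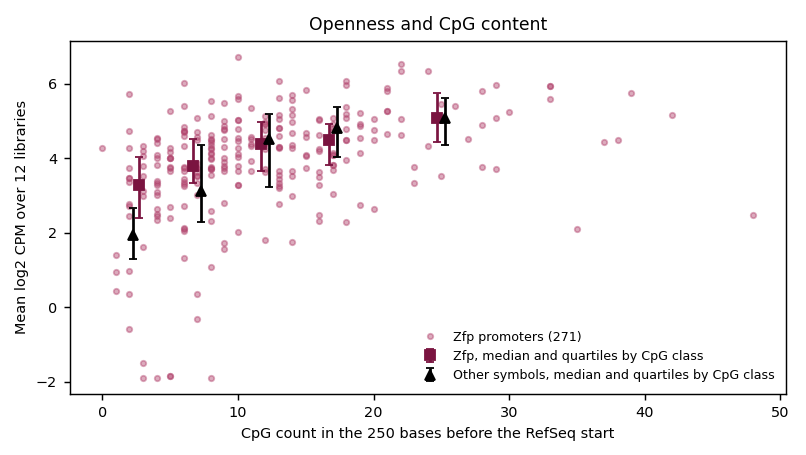
Mean log2 CPM over 12 libraries against the number of CpG in the 250 bases before the RefSeq start, for 271 Zfp promoters (circles), with median and quartiles by CpG class for Zfp promoters (squares) and other symbols (triangles), both drawn near the median CpG count of the class. Squares lie above triangles at 0 to 4 CpG (3.29 and 1.93) and meet them at 20 or more (5.07 and 5.09).

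Short motifs of promoter factors were counted in the same 250 bases, on both strands. CCAAT, the box bound by NF-Y, was met in 48.0% of Zfp promoters, against 36.3% of other promoters, and CCGGAAG, the core bound by ETS factors, in 18.5%, against 8.86%. GCGCATGCG, bound by NRF1, was met in 3.69%, against 1.92%. TATAAA, the TATA box, was met in 5.54%, against 12.8%, and GGGCGG, the GC box, in 38.7%, against 41.6%. CACGTG, an E-box, was met in 7.01%, against 6.67%, TGACGTCA, bound by CREB, in 2.95%, against 1.99%, and AAGATGGCG, bound by YY1, in 0.738%, against 0.703%. CTCGCGAG, bound by KAISO, was met in 0.369%, against 1.02%. ATCACCCCA, from the sterol response element of the LDL receptor gene bound by SREBP, was met in 0%, against 0.189%. None of these motifs contains another, and the ZFP143 letters were counted apart, as given above. Another start on the opposite strand within 1 kb was annotated for 27 Zfp promoters (9.96%), against 12.7% of others, and these 27 had a median log2 CPM of 4.76, against 4.09 for the remaining Zfp promoters. Among other symbols these medians were 5.09 and 3.16, a larger gap.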

How the data were processed

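ATAC-seq libraries of mouse liver, 4 per group, were used as deposited. The promoter table of the authors holds expected counts, in steps of 0.5 and not normalised, for 43511 promoters that carry RefSeq transcript names, a unit inferred from the numbers. Of these rows, 19318 are identical to another, so tests are not independent. Per the submitters' processing notes the tools were Trimmomatic, STAR 2.7.9a, bedtools 2.30.0 and HOMER 4.10 with the build mm10, with no roles given. The labels' protocols give no counting rule or promoter width. Promoter totals per library are in the results and limit the precision.

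Counts were rounded and fitted in R 4.3.3 with edgeR 4.0.16 (TMM, filterByExpr with a minimum count of 10 and total of 15, quasi-likelihood, all 12 libraries, group only), with Benjamini-Hochberg adjustment over the 41908 promoters tested and a threshold of 0.05. Standard errors are approximate (absolute log2 fold change over the root of F), with normal 95% intervals. Log2 CPM used a prior count of 2. DESeq2 1.42.0, limma 3.58.1 (voom) and the R package data.table, version 1.17.8, were also used. The fit was tested on simulated data.

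Named promoters were the 4 most and 4 least open with any count, the 3 of smallest p per direction and comparison where fewer than 5 passed, and role lists. Members and lists were chosen with earlier results of these data known; motifs, clusters and CpG classes are descriptions. Alternatives were other scalings (median-ratio size factors, library totals, loess), filters (none, minimum count 30), a threshold of 0.1, DESeq2, limma-voom, fits restricted to the groups compared, a replicate block, other rows per symbol and leaving out libraries. Sequences come from RefSeq for GRCm38.p6. No protein table was used here, so fingers and KRAB domains were not counted.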

Additional observations from a re-analysis of the deposited data

Results flagged for a closer look

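In 84 sets of 4 libraries, 6 held a library far from the other 3 by Dixon's criterion, which for promoters used log2 CPM. For continuous values chance gives about 1 in 20. At 4 of the 6 the promoter had almost no counts. Zfp966 and Zfp967, whose rows are identical, had 0.0723 CPM in atorvastatin 2 and 0 in the other atorvastatin libraries. Zfp932 had 0.114 CPM in PCN 1 and 0.0851 CPM in control 1, with 0 in the other libraries of those groups. Each of these values is 1 count beside 3 zeros. The criterion flags every such set, so the rate of 1 in 20 does not apply to them.

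Zfp54 had 11.2 CPM in PCN 2, below 14.7 to 15.5 CPM in the other PCN libraries. Zfp719 had 21.9 CPM in control 3, below 31.7 to 33.1 CPM in the other control libraries.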

How the results depend on the processing

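No alternative reversed a named promoter, and 0 Zfp promoters were called in each comparison under every alternative except 1. With the replicate number as a block and without control 3 and atorvastatin 3, a setting added after the data were seen, 1 Zfp promoter was called in PCN against control, Zfp36l1 (log2 fold change 0.579, adjusted p = 0.0496, edgeR). That is 1 of 385 Zfp promoters, against 124 of 41915 promoters in all (0.296%), a share near the background. In atorvastatin against control the same setting called 57 promoters in all (0.136%) and 0 Zfp promoters. It put 35 and 43 Zfp promoters at an unadjusted p under 0.05 in these comparisons, against 15 and 14 as reported. For this setting and for the replicate block alone, the share of all promoters at that p was not computed. A rise particular to Zfp promoters is therefore not shown. The replicate block alone gave 0 calls in each comparison, with 23, 15 and 2 promoters at an unadjusted p under 0.05 in PCN against control, atorvastatin against control and PCN against atorvastatin. Libraries with the same number correlated between -0.416 and 0.5 in their deviations, and 5 of 12 correlated best with their own number, so the numbers are not taken to pair them. With library totals the median log2 fold change in PCN against control was -0.024 instead of 0.09; the cause was not tested. The median level was 4.125 with the row of lowest mean CPM of each symbol, which by construction lowers it. Leaving out each library in turn gave 0 to 0 calls, medians of 0.068 to 0.11, 0.025 to 0.105 and -0.01 to 0.04 in the 3 comparisons, and a median level of 4.246 to 4.27 with an interquartile range of 1.51 to 1.614. Control 3 and control 4, the shallowest libraries, limit what can be seen at low promoters.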
